A study of Mus musculus with 15 samples.

Results

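Genes that are well known targets of PPAR-alpha were followed in the developing mouse kidney. The 8 genes are Cyp4a10, Cyp4a14, Ehhadh, Acaa1b, Cpt1a, Pdk4, Fabp3 and Angptl4, chosen by name as the array probes that carry their symbols. They account for 10 of the 24613 probes on the array, with a second probe for Cyp4a10 and for Angptl4, and the brightest probe stood for each gene. Of the 8 genes, 7 were bright enough to be among the 9531 genes tested, and Cpt1a was not. RNA of whole kidneys of untreated BALB/c mice (given as Balb/c in the sample labels) was hybridized to 15 Illumina MouseRef-8 arrays, with 5 arrays at embryonic day 16 (E16d), 5 at postnatal day 1 (PN1d) and 5 at postnatal day 7 (PN7d). The methods describe the animals as male, and no source used here says whether kidneys were pooled, so that p-values measure only the spread between these samples, which may be technical. Feeding is likewise not stated in the sources used here.

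PPAR-alpha is a nuclear receptor that binds fatty acids and switches on genes for their use, as a heterodimer with a retinoid X receptor. Its targets take fatty acids into cells, oxidize them in mitochondria and peroxisomes, or hydroxylate the far, omega end of the chain in the endoplasmic reticulum, which yields dicarboxylic acids that peroxisomes then shorten. The proximal tubule of the kidney lives largely on fatty acids, and birth replaces placental glucose with fat-rich milk. Ketogenesis, the making of ketone bodies from the acetyl-CoA of fatty acid oxidation, is controlled by the same receptor in liver, but none of the 8 genes is an enzyme of ketone body synthesis, so the genes of ketone bodies are described apart.

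All values are log2 intensities after quantile normalization, and a difference of 1 stands for a 2-fold change. The values ran from 5.56 to 13.80 with an overall median of 6.22, and a value at or below it is near the dim end of the array. The values show no sign of a subtracted background, which understates changes of dim genes, and levels of different probes cannot be set against each other. A gene was called higher or lower where the adjusted p of the limma model, corrected over all 9531 genes, was under 0.05. SE is the standard error of a log2 fold change in that model, and a mean is given with the SD over 5 arrays. PN1d and PN7d are each set against the same E16d arrays, and in whole-kidney RNA more cells of a type and more RNA per cell cannot be told apart.

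Each of the 7 measured genes was higher at PN1d than at E16d and higher at PN7d than at E16d, with log2 fold changes between 0.77 and 1.75 at PN1d and between 0.87 and 4.64 at PN7d. Each PN1d array and each PN7d array also lay above each E16d array for all 7 genes. The background was wide: 21.4% of all genes tested were called higher and 24.9% lower at PN1d, and 32.3% were called higher and 32.2% lower at PN7d. Every PN1d array lay above every E16d array for 17.6% of the genes, and every PN7d array did so for 25.3%. The median log2 fold change of the 7 genes was 1.16 at PN1d and 1.94 at PN7d, while that of all genes tested was -0.016 and 0.0016. Cyp4a14 passed the brightness filter only through its postnatal level and so had to differ, and these counts describe 7 of 8 genes.

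**Figure D1:**
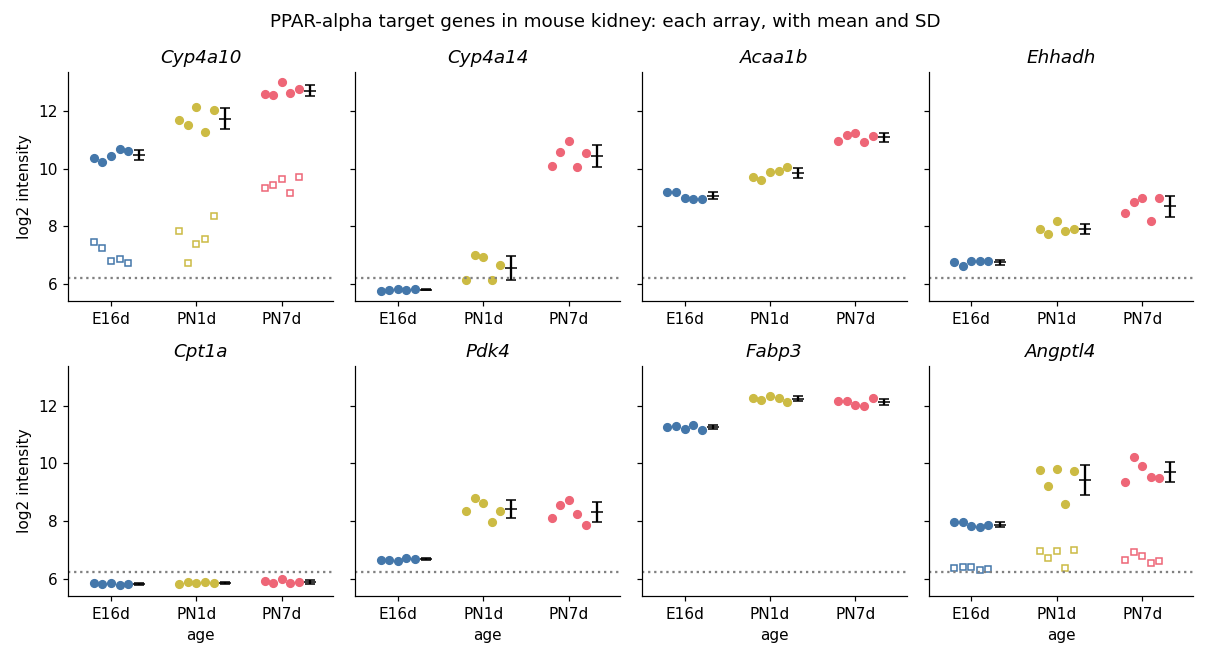
Log2 intensity (vertical axis) of the 8 genes on each of the 15 arrays, by age, with the mean and SD of 5 arrays as a black bar. Filled circles are the brightest probe, open squares the second probe of Cyp4a10 and Angptl4, and the dotted line is the overall median at 6.22. Cyp4a14 stood below the line on all E16d arrays and above 10 on all PN7d arrays, and Cpt1a stayed below the line at the 3 ages.

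After birth the 7 genes divided by whether they passed the test between PN1d and PN7d. Cyp4a14, Acaa1b, Cyp4a10 and Ehhadh were higher again at PN7d than at PN1d, by 3.87, 1.24, 0.97 and 0.78 on the log2 scale. Pdk4, Fabp3 and Angptl4 did not pass the test between these ages. Over all genes tested, 24.1% were called higher and 21.2% lower at PN7d than at PN1d. Each PN7d array lay above each PN1d array for Cyp4a14, Acaa1b and Cyp4a10, as it did for 14.4% of all genes. The median of the 7 genes was 0.78, and that of all genes was 0.0082.

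Whether the change over the first postnatal week differed from the change across birth was tested directly, as the difference between the 2 steps, both of which use the PN1d arrays. The first-week step was more positive for 2 of the 7 genes, Cyp4a14, which passed the filter only through its postnatal level, and Acaa1b, whose call several other settings did not keep, more negative for 3, Pdk4, Angptl4 and Fabp3, and not different at this threshold for Cyp4a10 and Ehhadh. Among all genes tested, the first-week step was more positive for 14.9% and more negative for 12.5%. The steps span different lengths of time, from embryonic day 16 to PN1d and from PN1d to PN7d.

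**Figure D2:**
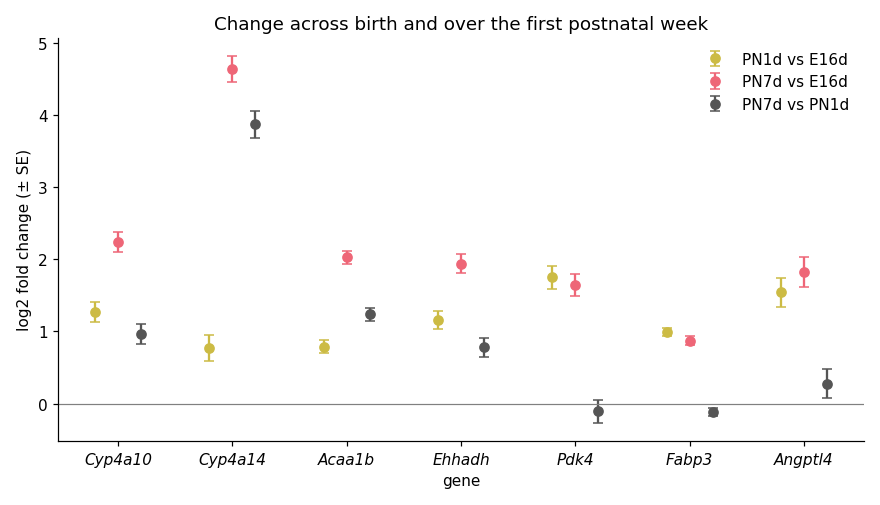
Log2 fold change with SE (vertical axis) of the 7 measured genes in the 3 comparisons of ages, from the limma model over 15 arrays. Pdk4, Fabp3 and Angptl4 did not pass the test between PN7d and PN1d (-0.11, -0.12 and 0.28), while Cyp4a14 stood at 3.87.

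Cyp4a14 is a cytochrome P450 that hydroxylates fatty acids at the omega end, and its rise was concentrated in the first postnatal week. It measured 5.77, 5.80, 5.81, 5.79 and 5.84 on the E16d arrays, 6.12, 7.00, 6.92, 6.15 and 6.64 on the PN1d arrays, and 10.08, 10.58, 10.96, 10.04 and 10.53 on the PN7d arrays. All E16d arrays were at the dim end, 3 of the 5 PN1d arrays were above the overall median, and the 3 ages did not overlap. The log2 fold change was 0.77 at PN1d against E16d (SE 0.181, adjusted p = 0.00233) and 3.87 at PN7d against PN1d (SE 0.181, adjusted p = 1.82e-10). Since every E16d array was below the overall median, the rise from E16d is a bound, taken as the mean of the brighter age over that median. It was at least 18.6-fold at PN7d and at least 1.27-fold at PN1d. The first-week step exceeded the step across birth by 3.10 (SE 0.314, adjusted p = 2.70e-06), a value in which the step across birth starts from the dim end of the scale. With a normexp background correction the steps were 4.55 and 1.49, and their difference was 3.06.

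Cyp4a10, a second omega-hydroxylase whose gene lies next to Cyp4a14 on chromosome 4 with 0 protein-coding genes between them, was already bright before birth. Its brightest probe measured 10.37, 10.24, 10.44, 10.68 and 10.60 at E16d, 11.69, 11.53, 12.13, 11.29 and 12.05 at PN1d, and 12.59, 12.56, 13.00, 12.62 and 12.76 at PN7d. The ages did not overlap, and the PN1d arrays were spread more widely than those of the other ages. It was higher by 1.27 at PN1d than at E16d (SE 0.141, adjusted p = 1.89e-06) and by 0.97 at PN7d than at PN1d (SE 0.141, adjusted p = 3.98e-05).

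The second probe of Cyp4a10 gave another split of the same overall rise. It averaged 7.02 ± 0.31 at E16d, 7.58 ± 0.60 at PN1d and 9.45 ± 0.22 at PN7d, and 1 PN1d array, replicate 2, lay at 6.74, just under the lowest E16d array, also at 6.74. In a fit of 11586 probes it was higher by 2.43 at PN7d than at E16d (adjusted p = 8.78e-08), close to the 2.24 of the brightest probe. The change across birth was 0.56 (SE 0.226, adjusted p = 0.0545) and that of the first week 1.87 (adjusted p = 6.52e-06), so that the first-week step was larger by 1.32 (SE 0.391, adjusted p = 0.0204). For the brightest probe this difference was -0.30 (SE 0.243, adjusted p = 0.388). Genes of the Cyp4a family are close copies of each other, probe sequences were not used here, and the share of signal that a related transcript gives each probe was not tested.

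Ehhadh, the bifunctional enzyme of the hydration and dehydrogenation steps of peroxisomal beta-oxidation, rose at both steps. It measured 6.76, 6.62, 6.81, 6.79 and 6.80 at E16d, 7.91, 7.74, 8.18, 7.84 and 7.89 at PN1d, and 8.48, 8.84, 9.00, 8.18 and 8.99 at PN7d. The postnatal arrays stood clear of E16d, while PN7d replicate 4 fell just under PN1d replicate 3. Ehhadh was higher by 1.16 at PN1d than at E16d (SE 0.130, adjusted p = 2.27e-06), by 1.94 at PN7d than at E16d (adjusted p = 1.75e-09) and by 0.78 at PN7d than at PN1d (adjusted p = 0.000151). The 2 steps differed by -0.38 (95% interval -0.85 to 0.10, adjusted p = 0.237).

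Acaa1b, a peroxisomal thiolase that cleaves acetyl-CoA from the shortened chain, rose at both steps with a clear separation of ages. It measured 9.18, 9.20, 8.98, 8.97 and 8.97 at E16d, 9.70, 9.63, 9.90, 9.94 and 10.06 at PN1d, and 10.95, 11.18, 11.25, 10.92 and 11.12 at PN7d. No array of one age reached those of the next. Acaa1b was higher by 0.79 at PN1d than at E16d (SE 0.0888, adjusted p = 2.32e-06) and by 1.24 at PN7d than at PN1d (SE 0.0888, adjusted p = 2.29e-08). The first-week step was larger by 0.45 (SE 0.154, adjusted p = 0.0372), a call that was lost with no filter (adjusted p = 0.0576), with normexp (adjusted p = 0.0549), with the replicate number as a block (adjusted p = 0.0619) and without any 1 of 7 arrays (adjusted p up to 0.124, without PN1d replicate 2). Its near copy Acaa1a, also on chromosome 9 with 4 protein-coding genes between them, was flat across birth (-0.00069, adjusted p = 0.996) and higher by 0.49 at PN7d than at PN1d (adjusted p = 0.000353), and signal of one transcript on the probe of the other was not tested.

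Pdk4 and Cpt1a stand at the switch between glucose and fat in mitochondria. Pdk4 encodes a kinase that inhibits the pyruvate dehydrogenase complex and so spares glucose. It measured 6.64, 6.66, 6.62, 6.70 and 6.69 at E16d, 8.35, 8.79, 8.64, 7.95 and 8.33 at PN1d, and 8.10, 8.56, 8.74, 8.24 and 7.87 at PN7d. The E16d arrays were nearly alike, and the ranges of the postnatal ages covered much the same span. Pdk4 was higher by 1.75 at PN1d (SE 0.154, adjusted p = 1.62e-07) and by 1.64 at PN7d (adjusted p = 9.70e-08) than at E16d. Between PN7d and PN1d the difference was -0.11 (95% interval -0.43 to 0.22, adjusted p = 0.591), and the first-week step differed from the step across birth by -1.86 (SE 0.267, adjusted p = 9.21e-05).

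Other kinases of the same complex changed less or the other way. Pdk1 was higher by 0.70 at PN1d than at E16d (adjusted p = 4.19e-06) and by 0.68 at PN7d than at E16d (adjusted p = 2.27e-06). Pdk2 was higher by 0.51 (adjusted p = 0.00464) and 0.83 (adjusted p = 3.81e-05) in the same comparisons. Pdk3 was lower at PN7d than at E16d (-0.49, adjusted p = 5.49e-06) and did not pass at PN1d (-0.15, adjusted p = 0.0654). Pdp1, the phosphatase that reverses the kinases, was higher by 0.28 at PN1d than at E16d (adjusted p = 0.000161) and stood at 0.024 at PN7d against E16d (adjusted p = 0.680).

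Cpt1a, which joins long-chain fatty acids to carnitine for entry into mitochondria and is the form of liver and kidney, could not be measured with its probe. It lay between 5.76 and 5.99 on all 15 arrays, at or below the overall median on each of them. Without the brightness filter, in a fit of 15967 genes, it differed by 0.040 at PN1d (adjusted p = 0.439) and by 0.083 at PN7d (adjusted p = 0.0518) from E16d, so that a change was not detectable at this brightness. Cpt1b, the muscle form of the enzyme, was higher by 0.62 at PN1d (adjusted p = 4.92e-05) and by 1.26 at PN7d (adjusted p = 6.02e-09) than at E16d.

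Fabp3, a cytosolic fatty acid-binding protein of heart, muscle and kidney, was higher at both postnatal ages than at E16d. It measured 11.25, 11.29, 11.20, 11.33 and 11.16 at E16d, 12.27, 12.19, 12.34, 12.26 and 12.13 at PN1d, and 12.15, 12.17, 12.03, 12.00 and 12.25 at PN7d. The 5 arrays of each age agreed closely, and both postnatal ages stood apart from E16d while overlapping each other. Fabp3 was higher by 0.99 at PN1d (SE 0.0573, adjusted p = 2.12e-09) and by 0.87 at PN7d (adjusted p = 1.28e-09) than at E16d. The difference between PN7d and PN1d was -0.12 (95% interval -0.24 to 0.0038, adjusted p = 0.106), which passed the test without PN7d replicate 5 (-0.15, adjusted p = 0.0434). The first-week step differed from the step across birth by -1.11 (SE 0.0992, adjusted p = 7.40e-07). Fabp5, another cytosolic binding protein, was lower than at E16d at PN1d (-0.54, adjusted p = 6.78e-05) and PN7d (-0.79, adjusted p = 5.40e-07).

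Angptl4, a secreted inhibitor of lipoprotein lipase, had the widest spread among PN1d arrays of the brightest probes of the 8 genes (SD 0.53), with the second probe of Cyp4a10 wider still (SD 0.60). It measured 7.95, 7.97, 7.81, 7.79 and 7.85 at E16d, 9.75, 9.22, 9.80, 8.58 and 9.73 at PN1d, and 9.34, 10.22, 9.92, 9.52 and 9.47 at PN7d. PN1d replicate 4 was the lowest postnatal array and still lay above each E16d array. Angptl4 was higher by 1.54 at PN1d (SE 0.205, adjusted p = 1.27e-05) and by 1.82 at PN7d (adjusted p = 7.98e-07) than at E16d. Between PN7d and PN1d the difference was 0.28 (95% interval -0.16 to 0.71, adjusted p = 0.286). The first-week step differed by -1.26 (SE 0.355, adjusted p = 0.0146), and this call was lost without PN1d replicate 3 (-1.07, adjusted p = 0.0508).

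The second, dimmer probe of Angptl4 called the same directions against E16d with smaller sizes. It averaged 6.36 ± 0.059 at E16d, 6.80 ± 0.26 at PN1d and 6.70 ± 0.16 at PN7d, and was higher by 0.44 at PN1d (adjusted p = 0.00228) and by 0.34 at PN7d (adjusted p = 0.00880) than at E16d. Between PN7d and PN1d it differed by -0.10 (adjusted p = 0.453). Angptl6, a relative of Angptl4, was lower at PN1d than at E16d (-0.18, adjusted p = 0.00624) and stood at 0.032 at PN7d against E16d (adjusted p = 0.596). Lpl, the lipase that Angptl4 inhibits, was itself higher by 0.91 at PN1d (adjusted p = 5.54e-07) and by 1.34 at PN7d (adjusted p = 1.77e-09) than at E16d, and was named after its values were seen.

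The stretches before the start sites of Ehhadh and Pdk4 are shown because Ehhadh rose at both steps and Pdk4 passed the test across birth and not between PN7d and PN1d. RefSeq windows on the mouse build GRCm38.p6, of 250 bases before and 50 after the start site, were matched for 5 of the 8 genes (Pdk4, Cpt1a, Acaa1b, Ehhadh and Fabp3), and the 250 bases before the start site are printed. The strand is minus for both genes, Ehhadh at chr16:21787835-21788084 and Pdk4 at chr6:5496279-5496528. Capitals mark 13 bases that come closest to AGGTCANAGGTCA, searched on both strands. It is the direct repeat with 1 base between its elements that PPAR and retinoid X receptor bind. Where several stretches match equally well, only the first found is marked. In Pdk4 the unmarked stretch agttcagagtccc matches as many letters as the marked one.
Ehhadh: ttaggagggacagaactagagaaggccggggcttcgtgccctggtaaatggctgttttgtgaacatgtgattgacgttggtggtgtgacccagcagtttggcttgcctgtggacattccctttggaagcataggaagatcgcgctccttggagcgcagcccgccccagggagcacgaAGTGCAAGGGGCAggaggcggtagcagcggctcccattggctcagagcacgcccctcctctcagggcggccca
Pdk4: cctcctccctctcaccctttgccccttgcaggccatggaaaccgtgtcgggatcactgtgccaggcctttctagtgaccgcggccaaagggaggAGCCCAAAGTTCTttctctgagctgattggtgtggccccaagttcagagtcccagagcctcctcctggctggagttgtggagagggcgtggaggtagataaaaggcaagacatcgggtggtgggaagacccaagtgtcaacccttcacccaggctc
The full repeat was found in 0 of the 5 windows, and in 13 (0.0396%) of 32851 RefSeq promoter windows of the same length. The closest stretch matched 8 of the 12 fixed letters in each of the 5 windows, and 79.8% of all windows hold a stretch at least as close. A single element AGGTCA, on either strand, was found 1 time in the window of Cpt1a and 0 times in the other 4, and 16.3% of all windows hold it. These counts describe the letters of these windows and say nothing of whether the receptor binds there or elsewhere.

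Within an age the 7 genes varied together to a moderate extent. Of the 21 pairs of genes, 16 had a positive correlation of their deviations from the age mean over the 15 arrays, with a median Pearson r of 0.36 and a range of -0.27 to 0.72. The highest was that of Cyp4a14 with Pdk4, and the lowest that of Pdk4 with Fabp3. The points share arrays and their normalization, so these values are a description. PN1d replicate 3 lay above its age mean for all 7 genes, PN7d replicate 3 was the highest PN7d array for 5 of them, and PN7d replicate 4 lay below its age mean for all 7.

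**Figure D3:**
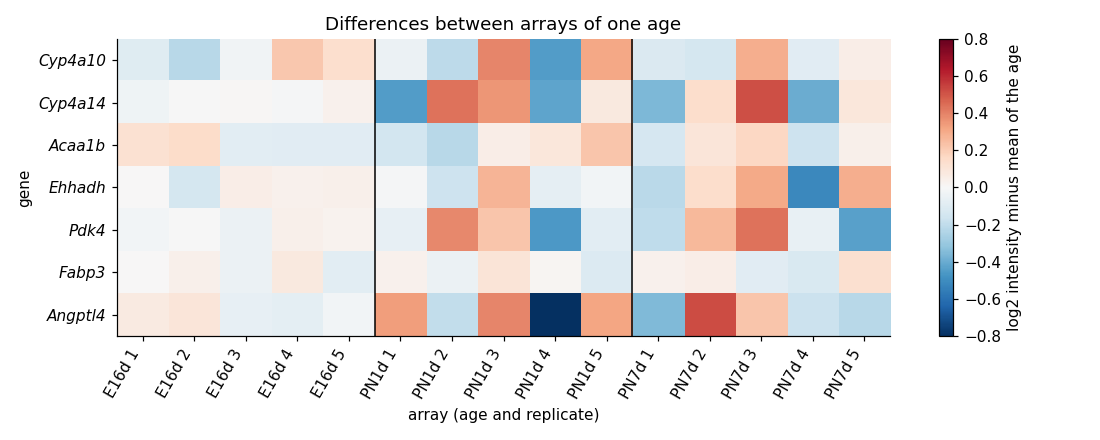
Log2 intensity minus the mean of the age (colour, red above and blue below) for the 7 measured genes (rows) on the 15 arrays (columns, by age and replicate). The E16d columns are pale, PN1d replicate 3 and PN7d replicate 3 are mostly red, and PN1d replicate 4 is darkest for Angptl4 at 8.58 against an age mean of 9.42.

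Of the other known targets of the receptor in fatty acid handling, most of those tested were higher after birth. Of 47 listed genes, 43 had a probe and 30 were tested. At PN1d 20 were higher than at E16d and 0 lower, with a median of 0.30, and at PN7d 23 were higher and 0 lower, with a median of 0.64. Cidec, 1 of the 23, passed the filter only through its postnatal levels, so it could not be called lower than at E16d. The list was put together with results of these data known, and its counts are to be read against the shares of all genes given above. They rest on the brightest probe of each gene. Dimmer probes past the filter averaged lower at PN7d than at E16d for Acadm (9.28 against 9.83) and Hadhb (7.63 against 8.10). The same held for Slc22a5 (6.32 against 6.43), Acot8 (6.46 against 6.47) and a probe of Acaa2 (8.62 against 8.72). Another probe of Acaa2 and those of Acadl, Cpt1b, Cpt2, Pex11a and Retsat averaged higher. The largest increases at both ages were those of Acot3, a peroxisomal acyl-CoA thioesterase (1.56 at PN1d, adjusted p = 1.34e-05, and 2.23 at PN7d, adjusted p = 9.28e-08), and of Slc27a2, a very long-chain acyl-CoA synthetase (1.38 and 2.04, with adjusted p = 3.66e-07 and 1.05e-09). Between PN7d and PN1d 20 were higher and 1 lower. The lower one was Acadm, medium-chain acyl-CoA dehydrogenase of mitochondria (-0.51, adjusted p = 0.00140), named after its values were seen.

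The other enzymes of omega-oxidation moved in both directions. Of 16 listed genes 7 were tested, and 3 were higher and 2 lower at each postnatal age than at E16d, and the median was 0.057 at PN1d and 0.13 at PN7d. Among all genes tested, 21.4% were higher and 24.9% lower at PN1d, and 32.3% and 32.2% at PN7d. Adh1, an alcohol dehydrogenase that can oxidize omega-hydroxy fatty acids, was higher by 1.33 at PN1d (adjusted p = 1.13e-08) and by 1.37 at PN7d (adjusted p = 1.45e-09). Cyp4f13, a P450 of a neighbouring subfamily, was higher by 0.47 (adjusted p = 0.000581) and 1.20 (adjusted p = 1.14e-08). Cyp4a12b, another member of the Cyp4a family, was lower at PN1d (-0.37, adjusted p = 0.0382) and at PN7d (-0.35, adjusted p = 0.0361), while its close copy Cyp4a12a was not called (-0.19 and -0.12). Cyp4f16 was lower at PN1d than at E16d (-0.25, adjusted p = 0.0295), and Adh5, the alcohol dehydrogenase that also clears formaldehyde, was lower at PN7d than at E16d (-0.54, adjusted p = 9.58e-06). Without PN1d replicate 2 and PN7d replicate 1, 1 gene was lower at PN1d.

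**Figure D4:**
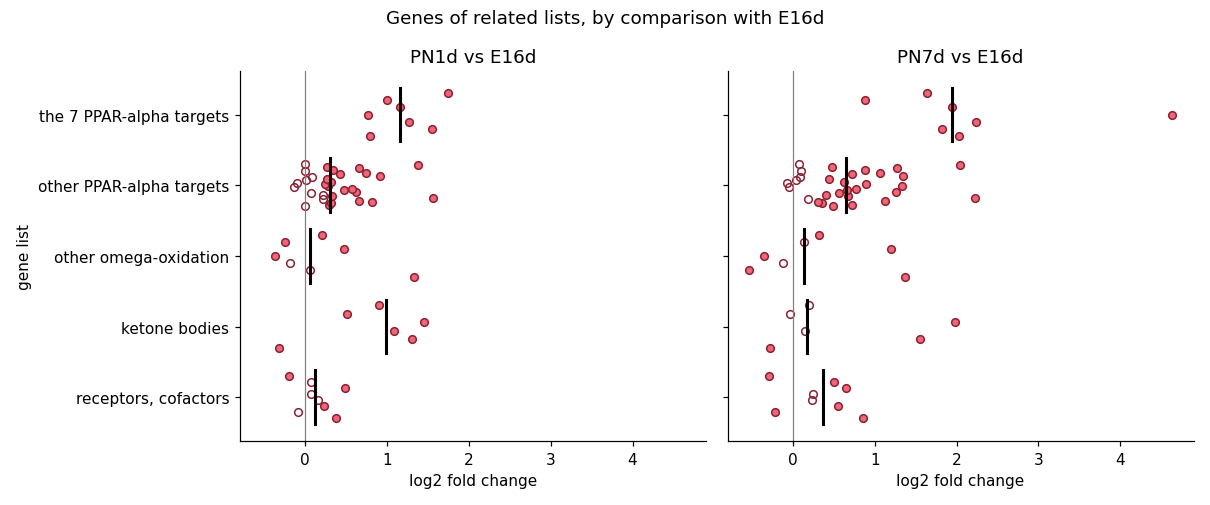
Log2 fold change (horizontal axis) of each tested gene of 5 lists (rows) at PN1d against E16d (left) and at PN7d against E16d (right). Filled circles passed the limma test, open circles did not, and the black bar is the median of the list. The bar of the ketone body genes stood at 0.99 at PN1d and at 0.17 at PN7d.

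Several genes of ketone body metabolism were highest at PN1d. Of the 6 genes tested, 5 were higher and 1 lower at PN1d than at E16d (median 0.99), 2 were higher and 1 lower at PN7d than at E16d (median 0.17), and 1 was higher and 3 lower at PN7d than at PN1d. The shares of all genes in these comparisons were 21.4% higher and 24.9% lower, 32.3% and 32.2%, and 24.1% and 21.2%. Bdh1, the mitochondrial dehydrogenase that interconverts acetoacetate and beta-hydroxybutyrate, measured 8.01, 8.08, 8.02, 8.06 and 7.89 at E16d, 8.98, 9.05, 9.21, 9.19 and 9.02 at PN1d, and 8.30, 8.32, 7.87, 7.74 and 8.53 at PN7d. All PN1d arrays were above all arrays of the other ages, which overlapped. Bdh1 was higher by 1.08 at PN1d than at E16d (adjusted p = 1.46e-06) and lower at PN7d than at PN1d (-0.94, adjusted p = 8.70e-06).

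Slc16a6, a carrier that exports ketone bodies from liver in zebrafish, was higher at PN1d than at E16d (0.90, adjusted p = 1.13e-05) and lower at PN7d than at PN1d (-0.71, adjusted p = 0.000153). Oxct1, which activates acetoacetate for use as a fuel, was higher at PN1d than at E16d (0.51, adjusted p = 0.000424) and lower at PN7d than at PN1d (-0.54, adjusted p = 0.000310). Acat1, the mitochondrial acetoacetyl-CoA thiolase, was higher by 1.31 at PN1d (adjusted p = 4.89e-09) and by 1.56 at PN7d (adjusted p = 9.48e-11) than at E16d, and was the gene called higher at PN7d than at PN1d (0.25, adjusted p = 0.0202), a call lost without PN1d replicate 2 and PN7d replicate 1. Bdh2, a cytosolic dehydrogenase, was higher by 1.44 at PN1d (SE 0.312, adjusted p = 0.00114) and by 1.98 at PN7d (adjusted p = 3.30e-05), with E16d arrays that ran from 7.17 to 9.77. Aacs, which activates acetoacetate in the cytosol for lipid synthesis, was lower at PN1d (-0.32, adjusted p = 0.000287) and at PN7d (-0.28, adjusted p = 0.000544). Hmgcll1, Slc16a1 and Slc16a7 were too dim to be tested.

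The receptor itself was near the dim end. Ppara measured 6.01 to 6.15 at E16d, 5.99 to 6.13 at PN1d and 6.17 to 6.26 at PN7d, and its mean did not exceed the overall median at any age, so it was not tested. Its PN7d mean of 6.218 fell just under that median of 6.220, with 3 of 5 PN7d arrays above it. Ppard and Rxrg were also too dim, and Rxra and Ncor1 were not analysed here. Pparg did not pass at PN1d (0.073, adjusted p = 0.608) or at PN7d (0.24, adjusted p = 0.0538).

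Of the 8 receptors and cofactors tested, 3 were higher and 1 lower at PN1d than at E16d, and 4 were higher and 2 lower at PN7d than at E16d. The shares of all genes were 21.4% higher and 24.9% lower at PN1d, and 32.3% and 32.2% at PN7d. Ppargc1a, a coactivator of mitochondrial genes, was higher by 0.48 at PN1d (adjusted p = 0.00755) and by 0.64 at PN7d (adjusted p = 0.000530). Esrra, an orphan nuclear receptor that works with it, was higher by 0.38 (adjusted p = 0.00541) and 0.86 (adjusted p = 1.17e-06). Ncoa1, a general coactivator, was higher by 0.22 (adjusted p = 0.00520) and 0.55 (adjusted p = 4.77e-07). Ppargc1b, a relative of Ppargc1a, was higher at PN7d only by the test (0.50, adjusted p = 0.000179), with 0.073 at PN1d (adjusted p = 0.552). Rxrb, a partner of the PPARs, was lower at PN1d (-0.20, adjusted p = 0.0387) and PN7d (-0.29, adjusted p = 0.00298), Med1, a mediator subunit, was lower at PN7d (-0.22, adjusted p = 0.00526), and Nrip1, a corepressor, did not pass (0.16 and 0.23, adjusted p = 0.383 and 0.173). Without PN1d replicate 2 and PN7d replicate 1 the counts were 0 lower at PN1d and 5 higher at PN7d.

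Markers of nephron segments and of other tissues moved with age in the same arrays. Their counts are to be read against the shares of all genes given above. Markers of the proximal tubule were higher at PN1d for 7 of 8 genes and at PN7d for 8 of 8 (medians 1.28 and 2.39), and their summed intensity was 4522 to 5957 at E16d, 14840 to 20310 at PN1d and 26340 to 32510 at PN7d. The brightest probe of Slc5a2, 1 of the 8, passed the filter only through its PN7d level and so had to be higher there. Another probe of Slc5a2, which was not counted, averaged 6.30 at E16d, 6.66 at PN1d and 7.72 at PN7d. Markers of the loop and distal tubule were higher for 4 of 5 genes at PN1d and 5 of 5 at PN7d (medians 1.12 and 2.43), and those of the collecting duct for 4 of 5 and 5 of 5 (medians 0.46 and 1.13). Of 3 podocyte markers, 1 passed the test at PN1d, upwards, while at PN7d 2 went up and 1 down. Of 2 markers of nephron progenitors, both were lower at PN1d and 1, Cited1, at PN7d (-1.23, adjusted p = 1.28e-09). Cited1 passed the filter only through its E16d and PN1d levels. Its direction at PN7d was thus set by the filter, and its PN7d arrays were all below the overall median. The part of tubule maturation in the rise of the 7 genes was not tested.

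Markers of fat cells appeared at PN7d. Their 11 genes on the array summed to 776.9 to 825.1 at E16d, 863.1 to 967.2 at PN1d and 1385 to 8322 at PN7d, and 6 of 6 tested were higher at PN7d than at E16d, against 1 of 6 at PN1d. Of these 6, 5 (Adipoq, Cidea, Cox8b, Dio2 and Ucp1) passed the filter only through their PN7d level and so had to differ. Fabp4, Retn, Elovl3 and Prdm16 were at or below the overall median on all arrays. Ucp1, the uncoupling protein of brown fat, measured 12.17, 8.07, 10.07, 11.71 and 11.07 on the PN7d arrays and lay below the overall median on each E16d and PN1d array. On PN7d replicate 2, the array lowest in Ucp1, Angptl4 was the highest of the PN7d arrays, Cyp4a14, Pdk4, Acaa1b and Fabp3 ranked 2 of 5, Ehhadh ranked 3 of 5 and Cyp4a10 was the lowest. On PN7d replicate 1, the array highest in Ucp1, Angptl4 was the lowest and Fabp3 ranked 3 of 5. Cyp4a10, Cyp4a14, Pdk4, Acaa1b and Ehhadh ranked 4 of 5 there. Ucp1 spanned 4.10 on the log2 scale among PN7d arrays, and the 7 genes spanned 0.25 to 0.91.

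Markers of hepatocytes were raised at PN1d. Their 10 genes on the array summed to 870.3 to 1280 at E16d, 1198 to 10160 at PN1d and 1152 to 1578 at PN7d, and 5 of 6 tested were higher at PN1d and 1 of 6 at PN7d than at E16d. PN1d replicate 2 was the highest, and Alb, Fgb, Apoh and Tat were at or below the overall median on all arrays. On PN1d replicate 2 Cyp4a14 and Pdk4 were the highest of the PN1d arrays, while Acaa1b and Ehhadh were the lowest. Markers of striated muscle, which uses Fabp3 and Cpt1b, summed to 655.0 to 752.4 at E16d, 679.9 to 784.5 at PN1d and 634.5 to 1123 at PN7d, with Ckm, Mb and Myh6 at or below the overall median on all arrays. A setting without PN1d replicate 2 and PN7d replicate 1 was chosen after seeing the data. It kept all 7 genes called higher at PN1d and at PN7d than at E16d, with medians of 1.20 and 2.00. The 4 genes called higher at PN7d than at PN1d were also kept. Signal of other tissues remained in this setting. Fat cell markers were still higher at PN7d than at E16d for 6 of 6 genes, and hepatocyte markers at PN1d for 4 of 6. The part of other tissues in the rise of the 7 genes was not tested.

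**Figure D5:**
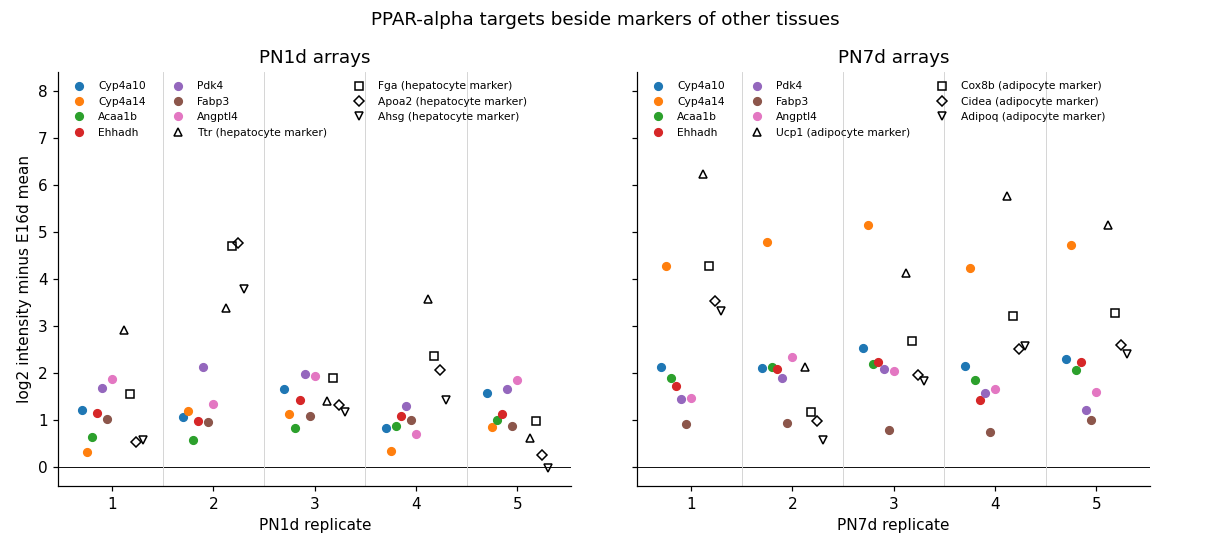
Log2 intensity minus the E16d mean (vertical axis) of the 7 genes (filled circles) and of 4 markers of another tissue (open symbols) on the 5 PN1d arrays (left, hepatocyte markers) and the 5 PN7d arrays (right, adipocyte markers), by replicate. The open symbols are highest at PN1d replicate 2 for 3 of the 4 hepatocyte markers and at PN7d replicate 1 for the 4 adipocyte markers, while the filled circles stay within narrower spans.

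The genes whose levels followed each target most closely over the 15 arrays were found by Pearson r among all genes tested, a measure that mostly reads the 3 ages. They were Podn (0.988) and Adamts5 (0.986) for Cyp4a14, Acadvl (0.983) and Acss1 (0.983) for Cyp4a10, Folr1 (0.988) and Slc30a2 (0.985) for Ehhadh, and Enpp6 (0.994) and Slc13a2 (0.992) for Acaa1b. For the 3 genes that did not pass between PN7d and PN1d they were Osmr (0.979) and Slco4a1 (0.973) for Pdk4, Tprn (0.988) and H2ac19 (0.988) for Fabp3, and Acsm5 (0.969) and Acot3 (0.954) for Angptl4. Acadvl and Acot3 are also in the list of other targets.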

How the data were processed

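RNA of 15 BALB/c kidney samples was hybridized to Illumina MouseRef-8 arrays, 1 sample per array, and the age and replicate of each came from the sample labels. The deposited table holds the authors' quantile-normalized intensities on the log2 scale (a natural-log reading would put the highest value at 988860, beyond the 65535 of a 16-bit scanner). Another 30 columns of signals and detection p-values carry sample numbers tied to no age and were not used, so no filter on detection was possible.

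A probe passed the filter where its mean at 1 or more ages exceeded the overall median (6.22), which left 13074 of 24613 probes, of which 1488 had no gene symbol and were left out. The brightest probe stood for each of 9531 genes. The 3 ages were fitted in limma 3.58.1 (R 4.3.3) over 15 arrays, with Benjamini-Hochberg adjustment over all genes in each comparison, and the model was tested on simulated data. Precision is limited by the number of arrays. The genes named are the 8 targets, the 2 genes closest to each in Pearson r, the 2 largest increases and decreases of each pathway list at PN1d and PN7d against E16d, and every gene of the lists of ketone bodies and of receptors. Pdp1, Acaa1a, Cyp4a12a, Lpl, Acadm, Cidec and the markers of cell types were named outside this rule, after their values were seen. Members and lists were chosen with earlier results of these data known. Alternatives covered the filter, the probes, the background (normexp, offset 16), the variance model, the arrays, the replicate number as a block and the methods' t-test. Figures were drawn with matplotlib 3.10.9 (Python 3.11.15).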

Additional observations from a re-analysis of the deposited data

Results flagged for a closer look

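Of 81 groups of 5 arrays examined for a lone array far from the rest, 2 stood out, and chance gives about 5% of groups. Ehhadh on E16d replicate 2 measured 6.62, below the nearest other E16d array at 6.76, a gap of 0.74 of the range of that age. Slc16a6 on E16d replicate 1 measured 7.68, below the nearest at 7.88, a gap of 0.797 of the range. Both were low at E16d on a single array.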

How the results depend on the processing

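Over 246 values of the 7 genes under other settings, 237 kept their direction and call, 5 lost the call, 0 gained it and 4 changed sign, and over 420 values with each array left out in turn, 410 kept both, 8 lost the call, 1 gained it and 1 changed sign. The sign changes were those of Angptl4 between PN7d and PN1d with its second probe (-0.10), of the step difference of Cyp4a10 with the mean of its probes (0.51) and with its second probe (1.32), and of Pdk4 between PN7d and PN1d, with 0.037 without PN1d replicate 2 and PN7d replicate 1, a setting chosen after seeing the data, and -0.22 to 0.00018 over single arrays. The step difference of Acaa1b lost its call with no filter (adjusted p = 0.0576), with normexp (0.0549), with the replicate block (0.0619) and without the 2 arrays named (0.0972), and without any 1 of 7 arrays. With a filter at the upper quartile (7.71) the genes called fell to 3967 (6150 in the main setting) for PN7d against E16d, 2823 (4323) for PN7d against PN1d and 1732 (2616) for the step difference, with fewer genes tested. Leaving out single arrays gave 4055 to 4517 genes for PN1d against E16d, 5884 to 6173, 3927 to 4337 and 2090 to 2766 for the others in that order, and 7, 7, 4 to 5 and 3 to 5 of the 7 targets, the 3 without PN1d replicate 3. Replicate numbers did not pair the arrays (15 pairs, r of deviations from -0.227 to 0.21, 4 over 0.1), and with the replicate number as a block 4450, 6185, 4335 and 2581 genes and 7, 7, 4 and 4 targets were called. The methods' t-test called 7, 7 and 4 targets, both unadjusted and adjusted, in the 3 comparisons of ages. Dim probes limit Cpt1a, Ppara and the E16d level of Cyp4a14.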
